A study of Mus musculus with 5 samples.

Results

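The genes described here are 10 that move calcium across the membranes of heart muscle cells or set their rhythm. They were chosen by name for those roles, and they are the calcium channel genes *Cacna2d2*, *Cacna1c*, *Cacna1d*, *Cacna1g* and *Cacna1h*, the pacemaker channel gene *Hcn4*, the calcium release channel genes *Ryr2* and *Ryr3*, the calcium pump gene *Atp2a2* and the exchanger gene *Slc8a1*. All 10 had tags, out of 13486 genes with a tag in at least 1 of 5 libraries of mouse heart at embryonic day 10.5. The libraries were made by Tag-seq, which cuts cDNA at the NlaIII site CATG and reads the 17 bases that follow it. Separate libraries were made from the atrioventricular canal (AVC), the outflow tract (OFT), the atria and the ventricles of wild-type C57BL/6 embryos, with the fifth from *Twist1* null AVC on the ICR strain. Each group had 1 library from tissue pooled over embryos, so no spread between replicates was measured and every test compares libraries rather than conditions. The pools held 25 embryos for AVC and for OFT, 20 for atria and for ventricles, and 8 for the null. The null differed from the wild-type AVC in strain, genotype and number of embryos pooled, and the effects of these cannot be told apart. In pooled tissue, fewer cells of a type and less RNA per cell cannot be told apart.

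A heartbeat starts when pacemaker cells depolarise through hyperpolarisation-activated channels such as HCN4 and through T-type and L-type calcium channels. Calcium that enters through L-type channels opens ryanodine receptors in the sarcoplasmic reticulum, whose calcium store drives contraction, and the pump SERCA2 and the sodium-calcium exchanger NCX1 then clear calcium from the cytosol. In the embryonic heart the muscle of the AVC conducts slowly, which separates the beat of the atria from that of the ventricles, and its inner side carries the endocardial cushions that form valves.

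The libraries held 4223810 tags in the ventricles to 12977237 in the null after low-count tag types were left out, and values are tags per 1000000 of these high-quality (HQ) tags (TPM). A tag type is listed only from 6 tags upward, which is 0.462 TPM in the null and 1.42 TPM in the ventricles. *Twist1* itself was at 918 TPM in AVC, 299 in OFT, 63.4 in atria, 55.9 in ventricles and 4.55 in the null. The 14 cardiomyocyte markers summed to between 23216 and 28848 TPM in all libraries except the atria, where they summed to 9578 TPM. *Nkx2-5*, a defining cardiomyocyte factor, had no tag in the atria or in the ventricles. Cushion mesenchyme markers summed to 3168 TPM in AVC, 3935 in OFT, 353 in atria, 336 in ventricles and 842 in the null. Markers of neurons and neural crest summed to 35.9 TPM in AVC, 76.9 in OFT, 3.86 in atria, 5.92 in ventricles and 38.1 in the null. Haemoglobin tags took 22% of the atrial tags against 0.368% of the AVC tags. Of the tags assigned to genes, those with T as the first base after the site made up 15.4% in AVC, 16.4% in OFT, 34.9% in atria, 24.6% in ventricles and 34.6% in the null. Within genes that had both kinds of tag, the null to AVC log2 ratio was higher by a median of 1.27 for T tags than for the others (3169 genes).

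The 10 genes showed 100 different tag types, kept because each matched 1 gene among the transcripts linked to RefSeq. Among all transcripts, *Atp2a2* tag types at 1.48 TPM in the AVC and at 1.08 TPM in the null also occur in *Gm30970*. Of the 100 tag types, 73 lie in 3′ UTRs and 27 in coding sequence. The tags below carry most of the results. The shorter and longer transcripts have 7577 and 13162 bases for *Cacna1c* and 3339 and 18464 bases for *Slc8a1*. They are not the only annotated forms of these genes, and some others are shorter still. The end tag of each shorter transcript occurs in 2 transcripts of its gene, so it does not mark that form alone. CATG in capitals marks the NlaIII site, positions are those of the GRCm38 build, and every tag lies in the last exon of its transcript and in the 3′ UTR.
Cacna2d2, site nearest the transcript end (chr9:107528892-107528912, plus strand, exon 38 of 38): CATGatgtgtgcccagcctgg
Cacna1c, end of the shorter transcript (chr6:118592326-118592346, minus strand, exon 42 of 42): CATGtaaagtaaatcgttttg
Cacna1c, end of the longer transcript (chr6:118587437-118587457, minus strand, exon 47 of 47): CATGtcgtcaaaggccctgcc
Cacna1d (chr14:30040568-30040588, minus strand, exon 47 of 47): CATGagatctcatcccatcac
Cacna1g (chr11:94408997-94409017, minus strand, exon 35 of 35): CATGccttcttcagtggctga
Cacna1h (chr17:25374492-25374512, minus strand, exon 35 of 35): CATGcaataagacgtcacagt
Hcn4 (chr9:58862988-58863008, plus strand, exon 8 of 8): CATGcattttataaacaccga
Ryr2, site nearest the transcript end (chr13:11553291-11553311, minus strand): CATGtacatcgattcatttta
Ryr2, an upstream site (chr13:11553915-11553935, minus strand): CATGacaaacacctttatttt
Ryr3 (chr2:112631779-112631799, minus strand, exon 104 of 104): CATGgtacttgctagtgactg
Atp2a2, distal end (chr5:122453534-122453554, minus strand, exon 21 of 21): CATGatttcaggtaaataaat
Atp2a2, the third site before the distal end (chr5:122453859-122453879, minus strand, exon 21 of 21): CATGctttctaatgggccctg
Atp2a2, proximal end (chr5:122456722-122456742, minus strand, exon 20 of 20): CATGattctctggatttaatt
Slc8a1, end of the shorter transcript (chr17:81385612-81385632, minus strand, exon 12 of 12): CATGctctgaagaaataaaga
Slc8a1, near the end of the longer transcript (chr17:81373695-81373715, minus strand, exon 8 of 8): CATGtgagcccacagaagaat

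The AVC was compared with the summed atria and ventricles to find genes that mark the canal. The channel genes *Cacna2d2*, *Cacna1d*, *Cacna1g*, *Cacna1h* and *Ryr3* were higher in the AVC, and *Cacna1c*, *Hcn4*, *Ryr2*, *Atp2a2* and *Slc8a1* did not pass the test in either direction. A call is an unadjusted p under 0.05 in edgeR's two-sided exact test with the study's dispersion of 0.12. So 5 of the 10 genes were called higher and 0 lower, against 43.4% of the 12503 genes tested called higher and 8.12% called lower. The median log2 ratio of the 10 genes was 1.84, and that of all genes tested was 1.23. With TMM scaling, which centres the libraries on most of their genes, the median log2 ratio of all genes tested fell by 0.95 and the shares called became 25.6% higher and 17.5% lower. The 5 genes passed under TMM too.

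In the OFT against the same atria and ventricles, *Cacna2d2*, *Cacna1d*, *Cacna1g* and *Cacna1h* were higher and *Hcn4* was lower. Against these 4 and 1 of 10 genes, 40.6% of 12451 genes were called higher and 8.88% lower, and the medians were 1.37 for the 10 genes and 1.07 for all. The TMM shift was -0.85, and the same 5 genes were called with it, against 26.2% higher and 17.7% lower. Both comparisons share the atrial and ventricular libraries. In the null against the wild-type AVC, *Cacna1c* was higher and *Cacna2d2*, *Cacna1g* and *Ryr3* were lower, 1 and 3 of 10 genes against 11.9% and 12.7% of 12963. After Benjamini-Hochberg adjustment of the edgeR p over all genes, 8.99% of genes passed and none of these 4 did, with adjusted p between 0.0745 and 0.167. Directly between AVC and OFT, *Cacna2d2*, *Hcn4* and *Ryr3* were higher in the AVC, 3 of 10 genes against 7.35% of 12541, and 0 were lower against 5.22%. Between ventricles and atria 0 of the 8 genes with tags were called by edgeR, against 11.1% of 10705 genes called higher and 9.03% lower. There, 0 of the 8 passed with DESeq2 size factors too.

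**Figure D1:**
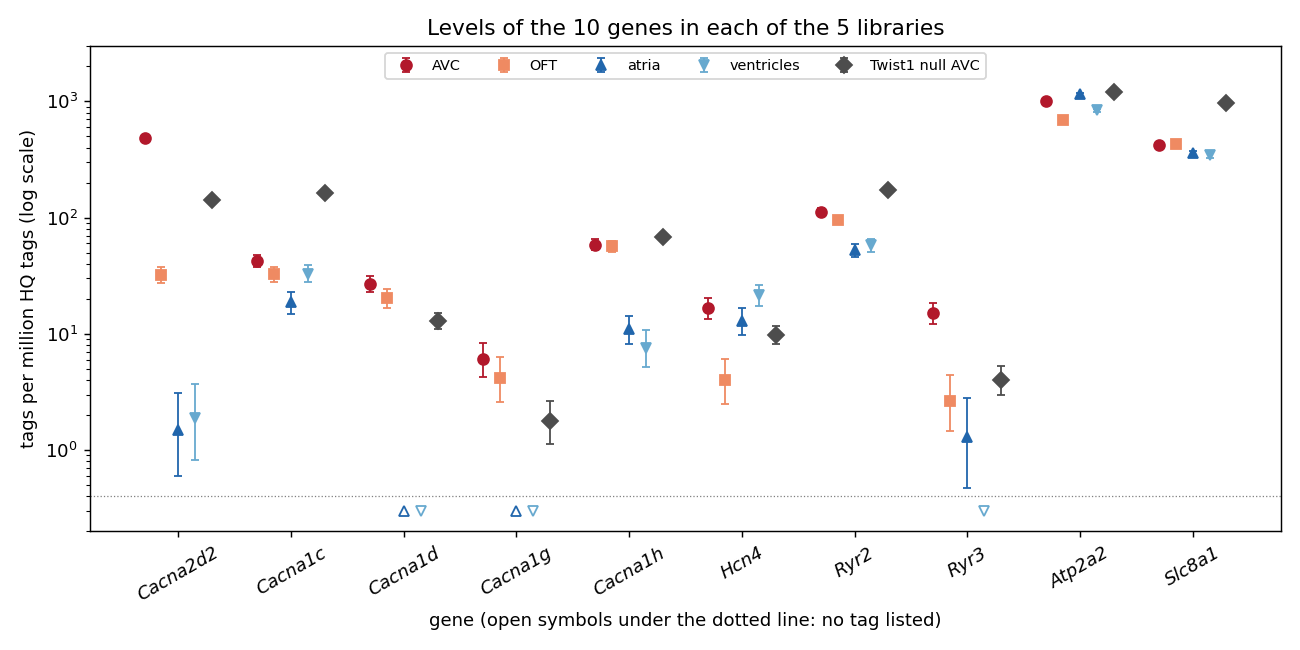
Levels of the 10 genes in the 5 libraries, in TPM on a log axis, with one symbol per library and bars for the 95% exact counting interval. *Cacna2d2* runs from 487 TPM in the AVC down to 1.5 TPM in the atria, while *Atp2a2* stays between 689 and 1207 TPM.

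*Cacna2d2* codes for an alpha-2-delta subunit, which lies outside the membrane and helps to bring calcium channels to the cell surface. It was at 487 TPM in AVC, 32.1 in OFT, 1.5 in atria, 1.89 in ventricles and 142 in the null. The AVC stood above every other library, and the counting intervals of the atria (0.603 to 3.09 TPM) and ventricles (0.818 to 3.73 TPM) overlapped. The level in the AVC was 289 times that of the summed atria and ventricles (95% counting interval 175 to 516, edgeR exact p = 6.27e-16). In the OFT it was 19.0 times that of the same libraries (11.2 to 34.7, edgeR exact p = 1.70e-06). The AVC to OFT ratio was 15.2 (13 to 17.8), which was the only AVC to OFT difference among the 10 genes to pass the adjusted test (edgeR adjusted p = 0.000679), as 1.88% of all genes did upward.

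Most *Cacna2d2* tags of the AVC came from the site nearest the transcript end, and the rest were spread along the transcript. All 14 of its tag types had tags in the AVC, 7 in the 3′ UTR and 7 in coding sequence, against 2 tag types in the OFT, 5 in the null and 1 each in the atria and ventricles. The tag nearest the transcript end held 90.8% of the AVC tags of the gene and read 442 TPM in AVC, 30.0 in OFT, 1.5 in atria, 1.89 in ventricles and 139 in the null. The 2 tag types listed in both AVC and OFT were each higher in the AVC. Those with no tag listed in the OFT could only be higher in the AVC. The AVC and OFT calls against the chambers held in all 20 alternative settings.

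**Figure D2:**
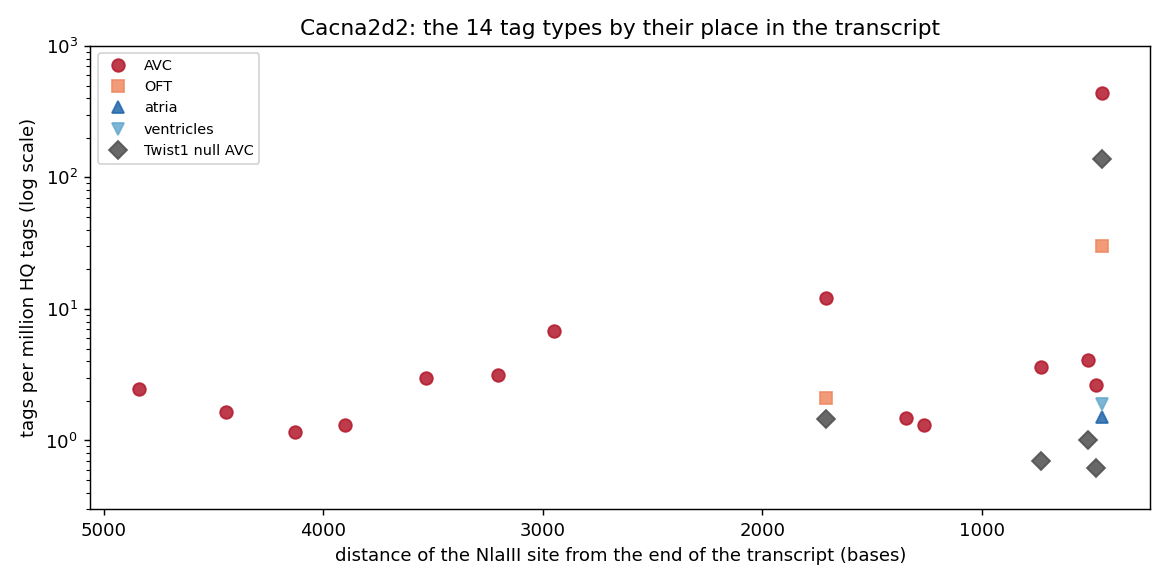
The 14 tag types of *Cacna2d2* by the distance of their NlaIII site from the transcript end (bases) and their level (TPM, log axis), with one symbol per library and only listed tags drawn. The AVC, which had the most tags of the gene, has a symbol at every site. At the site nearest the end the AVC reads 442 TPM against 1.89 in the ventricles and 1.5 in the atria.

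In the null, *Cacna2d2* was 3.42-fold lower than in the wild-type AVC (3.23 to 3.63, edgeR exact p = 0.0165, adjusted p = 0.105). Of its 14 tag types, 5 were listed in both libraries, and each of these was lower in the null. The other 9 had no tag listed in the null and could only be lower. They are also part of the next value. Without its leading tag the log2 ratio was -3.56 (edgeR exact p = 1.47e-05). When T tags were left out of the gene sums and of the totals, the log2 ratio was -1.41 and the call was lost (edgeR exact p = 0.0546). With the study's totals of all tags the log2 ratio was -1.40 and the call was also lost (edgeR exact p = 0.0552). Cushion mesenchyme markers summed to 842 TPM in the null against 3168 TPM in the wild-type AVC. Of these, 6 of 11 were called lower, against 12.7% of all genes tested. Cardiomyocyte markers summed to 23216 against 26652 TPM, with 1 of 14 called higher and 1 lower. Erythroid markers summed to 27379 against 2426 TPM and smooth muscle markers to 1048 against 508 TPM. The part of these differences in the *Cacna2d2* ratio was not tested. The genes nearest to *Cacna2d2* in their distribution over the 5 libraries, among 7020 genes that reached 20 TPM, were *Bmp2*, *Epha3* and *Pirt*. The distance is the sum of the absolute differences of the 5 library shares, and it was 0.108 for *Bmp2*, 0.225 for *Epha3* and 0.293 for *Pirt*. *Bmp2*, the cushion-inducing ligand of the AVC, read 220 TPM in AVC, 27.1 in OFT, 4.5 in atria and 51.2 in the null, and had no tag in the ventricles.

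*Cacna1c* codes for CaV1.2, the pore of the main L-type calcium channel of working heart muscle. Its level was 42.3 TPM in AVC, 32.7 in OFT, 18.6 in atria, 32.9 in ventricles and 164 in the null. The counting intervals of the OFT, the ventricles and the AVC overlapped, the atria lay below these 3 without overlap, and the null stood above them all. The AVC to chamber ratio was 1.66 (1.39 to 2.00) and was not called (edgeR exact p = 0.321), and with TMM its log2 value turned to -0.22. In the null the gene was 3.88 times its AVC level (3.41 to 4.43, edgeR exact p = 0.00907, adjusted p = 0.0745). Of its 11 tag types, 8 were higher in the null and 2 lower, including tag types that were not listed in both libraries.

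Most of this rise came from the tag at the end of the shorter transcript, which starts with T. It read 26.8 TPM in AVC, 20.3 in OFT, 18.6 in atria, 31.5 in ventricles and 128 in the null. Leaving it out brought the null to AVC log2 ratio from 1.96 to 1.20, and the call was lost (edgeR exact p = 0.108). Leaving out all T tags instead gave 1.89 (edgeR exact p = 0.0178). The tag at the end of the longer transcript read 9.38 TPM in AVC, 5.70 in OFT and 12.0 in the null, and had no tag in the atria or ventricles. Tags nearest other annotated *Cacna1c* ends read at most 2.30 TPM in AVC, 2.66 in OFT, and 8.78 and 7.32 in the null. Tags past the end of the shorter transcript made up 27.2% of the *Cacna1c* AVC tags, 17.4% of those in OFT and 11.9% of those in the null. They made up 0% of the 87 atrial and 139 ventricular tags, where exact intervals reach 4.15% and 2.62%.

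*Cacna1d* codes for CaV1.3, an L-type channel pore that opens at lower voltages and is known from pacemaker cells. It read 26.8 TPM in AVC, 20.3 in OFT and 12.9 in the null, and had no tag in the atria or the ventricles. With 5 tags set for each missing tag type, its AVC level was at least 4.77-fold higher, and its OFT level at least 4.51-fold higher, than that of the summed chambers (edgeR exact p = 0.00423 and 0.00629). On the listed counts, with 0 chamber tags, the edgeR exact p was 8.00e-11 and 1.22e-09. The AVC to OFT ratio was 1.32 (1.03 to 1.70) and was not called (edgeR exact p = 0.597). The null was 2.07-fold lower than the AVC (1.66 to 2.59), which did not pass the test (edgeR exact p = 0.162). Its leading tag read 18.1 TPM in the AVC and 6.01 TPM in the null, and its T tag read 1.81 TPM in the AVC and 4.62 TPM in the null.

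The T-type channel genes *Cacna1g* (CaV3.1) and *Cacna1h* (CaV3.2) code for pores that open near the resting potential. *Cacna1h* read 58.6 TPM in AVC, 56.6 in OFT, 10.9 in atria, 7.58 in ventricles and 68.2 in the null. The AVC, OFT and null were high, the chambers low, and the counting intervals of the AVC (52.7 to 65.0 TPM) and OFT (50.3 to 63.4 TPM) overlapped. It was 6.28 times as high in the AVC (4.93 to 8.07, edgeR exact p = 0.000692) and 6.06 times as high in the OFT (4.74 to 7.82, edgeR exact p = 0.000863) as in the summed chambers. The AVC to OFT ratio was 1.04 (0.886 to 1.21), and the null to AVC ratio was 1.16 (1.03 to 1.32). With a dispersion of 0.4 both chamber calls were lost.

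*Cacna1g* was rarer, at 6.09 TPM in AVC, 4.18 in OFT and 1.77 in the null, with no tag in the atria or ventricles. Against the chambers, again with missing tag types set to 5 tags, the AVC was at least 5.41-fold higher and the OFT at least 3.71-fold higher (edgeR exact p = 0.00885 and 0.0436). On the listed counts the edgeR exact p was 4.52e-06 and 7.51e-05. In the null it was 3.44-fold lower than in the AVC (1.99 to 6.06, edgeR exact p = 0.0358), on 23 tags against 37, and this call was lost with TMM (edgeR exact p = 0.0764). Its single AVC tag type read 6.09 TPM in the AVC and 0.925 TPM in the null, and a second tag type, which starts with T, was listed only in the null, at 0.848 TPM. Beside the missing tags of *Cacna1d* and *Cacna1g* stood 9777 genes with tags in the atria and 9721 in the ventricles, against 11915 in the AVC. *Calr*, which codes for the calcium-binding protein calreticulin of the endoplasmic reticulum, also had no tag in the atria or ventricles and read 289 TPM in the AVC. Whether the preparation of the chamber libraries had a part in these missing tags was not tested. Of 6 markers of neurons and neural crest tested, 5 were called higher in the AVC and 5 in the OFT than in the chambers. So were 10 of 11 cushion mesenchyme markers in each, and 9 and 8 of 14 cardiomyocyte markers. Over all genes tested the shares were 43.4% in the AVC and 40.6% in the OFT. The part of these cell types in the calls of *Cacna1d*, *Cacna1g* and, in the AVC, *Ryr3* was not tested.

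**Figure D3:**
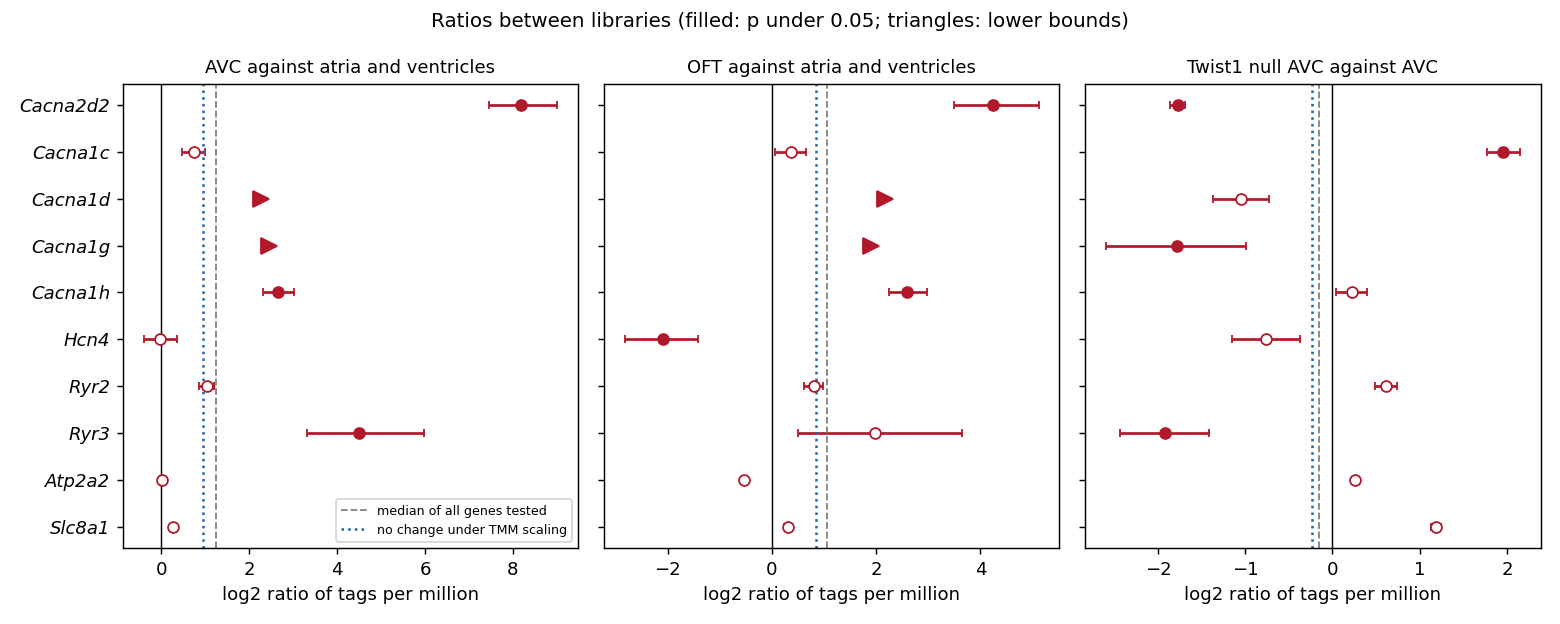
Log2 ratios of TPM for the 10 genes in 3 comparisons, with bars for the 95% counting interval and filled symbols for calls. Triangles are lower bounds over the tag types listed. The dashed line marks the median of all genes tested (1.23, 1.07 and -0.16) and the dotted line the value that TMM scaling sets to no change, and *Cacna2d2* lies at 8.17, 4.25 and -1.77.

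*Hcn4*, the main pacemaker channel gene of the heart, had its lowest level in the OFT. It read 16.6 TPM in AVC, 3.99 in OFT, 12.9 in atria, 21.5 in ventricles and 9.79 in the null. The counting interval of the OFT, 2.47 to 6.09 TPM, overlapped with none of the others. That of the AVC (13.5 to 20.2 TPM) overlapped with those of the atria (9.81 to 16.6 TPM) and ventricles (17.3 to 26.5 TPM), which did not overlap with each other. The OFT was 4.26-fold lower than the chambers (2.69 to 7.08, edgeR exact p = 0.0108, adjusted p = 0.0311), and the AVC was 4.17 times the OFT (2.59 to 7.03, edgeR exact p = 0.0136, adjusted p = 0.190). The AVC to chamber ratio was 0.979 (0.753 to 1.27, edgeR exact p = 0.975). In the null the level was 1.70-fold lower than in the AVC (1.29 to 2.22), which was not called (edgeR exact p = 0.320). All its wild-type tags came from 1 tag type, at the site nearest the transcript end.

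*Ryr2* codes for the ryanodine receptor of heart muscle, and *Ryr3* for a form better known from brain and smooth muscle. *Ryr2* read 112 TPM in AVC, 95.5 in OFT, 52.3 in atria, 57.8 in ventricles and 171 in the null. It was 2.04 times as high in the AVC as in the chambers (1.81 to 2.29), which did not pass (edgeR exact p = 0.161), and 1.53 times as high in the null as in the AVC (1.41 to 1.67, edgeR exact p = 0.395). The chambers were the lowest libraries, and their counting intervals overlapped. Its leading tag starts with T and read 97.3, 86.0, 52.3, 55.4 and 120 TPM in the AVC, OFT, atria, ventricles and null.

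The other *Ryr2* tags differed between libraries by more than the leading tag. The upstream tag shown above read 3.13 TPM in AVC, 3.42 in OFT and 32.4 in the null, and had no tag in the atria or ventricles. Without T tags in genes and totals, *Ryr2* was called higher in the AVC than in the chambers (log2 ratio 3.42, edgeR exact p = 0.00016), in the OFT (2.83, edgeR exact p = 0.0019) and in the null against the AVC (1.96, edgeR exact p = 0.00981). This leaves out the leading tag, which held 87.0% of the *Ryr2* tags in AVC, 90.1% in OFT, 100% in atria, 95.9% in ventricles and 70.0% in the null. The chamber tags that remained were 10 tags of 1 tag type in the ventricles. Upstream sites, which are those other than the one nearest a transcript end, held 13% of the *Ryr2* tags in AVC, 9.94% in OFT, 0% in atria, 4.10% in ventricles and 30.0% in the null. Over genes with at least 100 tags the median share at upstream sites was 12.2%, 14.3%, 3.81%, 4.05% and 21.6% in that order. Its part in these values was not tested.

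*Ryr3* was mostly an AVC transcript in these libraries, though a rare one. It read 15.1 TPM in AVC, 2.66 in OFT, 1.29 in atria and 4.01 in the null, and had no tag in the ventricles. The AVC was 22.4 times the chambers (9.92 to 62.7, edgeR exact p = 5.20e-06) on 92 tags against 6, and 5.70 times the OFT (3.23 to 10.8, edgeR exact p = 0.00329, adjusted p = 0.0820). The null was 3.78-fold lower than the AVC (2.66 to 5.42, edgeR exact p = 0.0155, adjusted p = 0.105). The tag shown above made up 68.5% of the AVC tags, at 10.4 TPM in AVC, 1.52 in OFT and 1.23 in the null. Without it, on fewer tags, the AVC to OFT log2 ratio was 2.05 (edgeR exact p = 0.0504) and the null to AVC log2 ratio -0.78 (edgeR exact p = 0.348), and neither was called. The 3 *Ryr3* tags lie on the opposite strand of transcripts of *Aven*, and tags are read with their strand. *Aven* read 9.05 TPM in AVC, 8.73 in OFT, 9.0 in atria, 7.10 in ventricles and 10.2 in the null.

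*Atp2a2* codes for SERCA2, the pump that returns calcium to the sarcoplasmic reticulum. It was at 1006 TPM in AVC, 689 in OFT, 1152 in atria, 839 in ventricles and 1207 in the null. It was not called in any of the 5 comparisons, with AVC to chamber and null to AVC ratios of 1.0 (0.971 to 1.04) and 1.20 (1.16 to 1.24). With TMM the AVC to chamber log2 ratio was -0.95 (edgeR exact p = 0.191). The gene is known to make a muscle form, SERCA2a, and a longer widespread form, SERCA2b, which differ at their C-terminus. In the annotation 1 transcript codes for 998 residues and ends at the distal site, and transcripts of 1044 residues end at the proximal or at the distal site.

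The tags of the *Atp2a2* ends differed between libraries while the sum of the gene did not pass a test. The distal-end tag read 583 TPM in AVC, 383 in OFT, 1097 in atria, 802 in ventricles and 1007 in the null. The proximal-end tag, which lies only in the 1044-residue transcripts, read 171 TPM in AVC, 173 in OFT, 12.2 in atria, 9.47 in ventricles and 48.5 in the null. Of both end tags together, the proximal one made up 22.6% in AVC (21.4 to 23.9), 31.2% in OFT (29.5 to 32.9), 1.10% in atria (0.835 to 1.43), 1.17% in ventricles (0.835 to 1.59) and 4.59% in the null (4.25 to 4.96). The counting intervals of the atria and ventricles overlapped, and no others did.

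The tag at the third site before the distal end, which shares its transcripts with the distal-end tag, differed in the same order between canal and chambers. It read 212 TPM in AVC, 109 in OFT, 39.6 in atria, 22.7 in ventricles and 122 in the null. Its share of itself and the distal-end tag was 26.6% in AVC, 22.2% in OFT, 3.49% in atria, 2.76% in ventricles and 10.8% in the null. The part of upstream sites in the proximal-end share was not tested. Without the leading tag, *Atp2a2* was called higher in the AVC and in the OFT than in the chambers, where its log2 ratio for the OFT turned from -0.54 to 2.70 (edgeR exact p = 0.000425).

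*Slc8a1* codes for NCX1, the exchanger that takes calcium out of the cell in return for sodium. It read 421 TPM in AVC, 434 in OFT, 360 in atria, 344 in ventricles and 960 in the null. The wild-type libraries were close to each other, and the null was 2.28 times the AVC (2.18 to 2.38) without passing the test (edgeR exact p = 0.103). This difference passed in 3 of 17 other settings, among them the tags of the site nearest a transcript end (log2 ratio 1.55, edgeR exact p = 0.0345). The AVC to chamber ratio was 1.20 (1.14 to 1.26, edgeR exact p = 0.718), and with TMM the log2 value turned to -0.69.

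The tags of the *Slc8a1* ends also moved apart. The tag at the end of the shorter transcript read 192 TPM in AVC, 231 in OFT, 335 in atria, 319 in ventricles and 564 in the null. The tag near the end of the longer transcript, which starts with T, read 58.3 TPM in AVC, 52.4 in OFT, 5.57 in atria, 8.52 in ventricles and 190 in the null. Tags past the end of the shorter transcript made up 26.2% of the *Slc8a1* tags in the AVC (24.5 to 27.9), 22.7% in the OFT (21 to 24.5), 2.38% in atria (1.71 to 3.23), 2.89% in ventricles (2.09 to 3.89) and 21.5% in the null (20.7 to 22.2). The atria and ventricles were low in these shares as in the shares of the *Cacna1c* and *Atp2a2* end tags. All *Slc8a1* tags past the shorter end lie at upstream sites. Upstream sites held 54.4% of the *Slc8a1* tags in AVC, 46.8% in OFT, 6.85% in atria, 7.24% in ventricles and 41.2% in the null. The tag at the third site before the shorter end read 97.3 TPM in AVC, 77.6 in OFT, 11.8 in atria, 12.5 in ventricles and 94.2 in the null. The part of upstream sites in the *Slc8a1* shares was not tested.

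**Figure D4:**
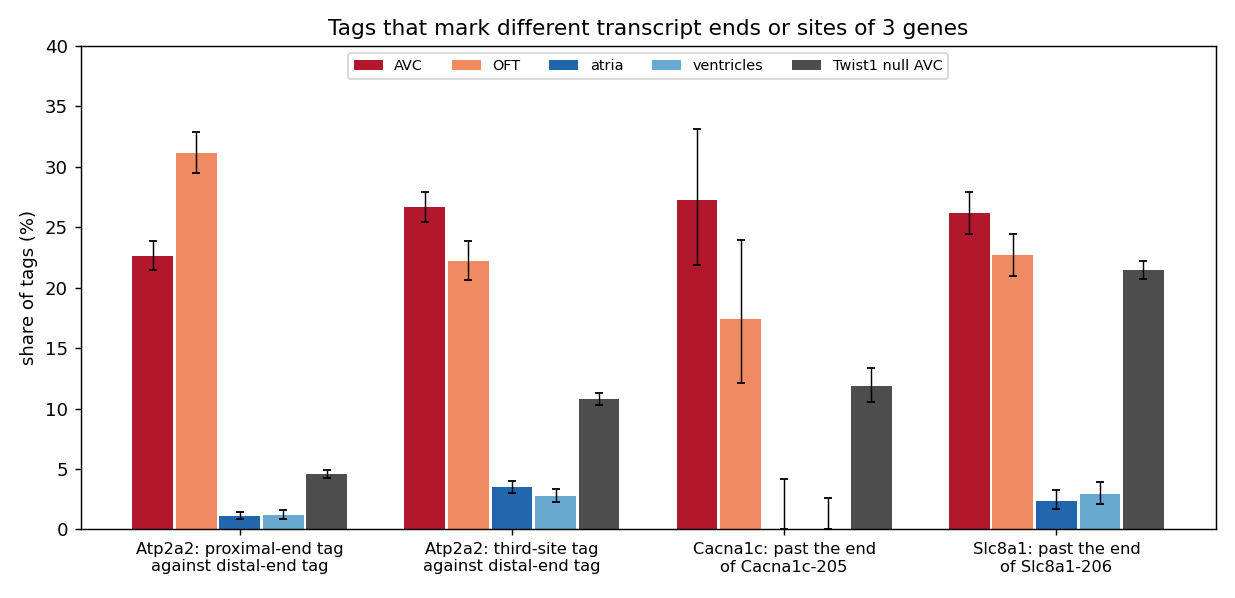
Shares of tags (%) in the 5 libraries for *Atp2a2* (proximal-end tag and the third-site tag, each with the distal-end tag as the rest), *Cacna1c* and *Slc8a1* (tags past the end of the shorter transcript), with bars for the 95% exact interval. The atria and ventricles lie at 3.49% or lower in each set, and the AVC between 22.6% and 27.2%.

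In the null against the AVC, the tags of the 10 genes divided by their first base as those of all genes did. Of the 51 tag types seen in both libraries, 11 of 18 with T were higher in the null and 10 of 33 with another first base. Over all genes 67.8% of T tags and 30.1% of the others were higher in the null, with median log2 ratios of 0.59 and -0.66. The leading *Cacna1c* tag and the leading *Ryr2* tag start with T, and the leading tags of *Cacna2d2*, *Cacna1g* and *Ryr3* do not. The part of the first base in the null values was not tested beyond the values without T tags given above.

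**Figure D5:**
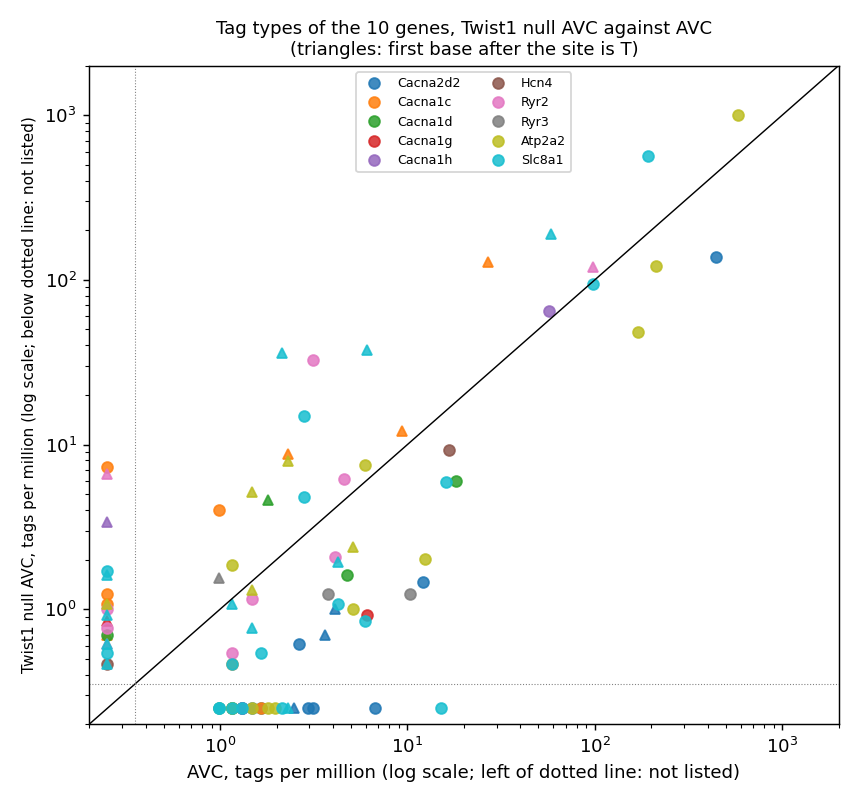
The 94 tag types of the 10 genes with tags in the wild-type AVC (x, TPM, log axis) or the null (y, TPM, log axis), with a colour per gene, triangles for T as first base and the diagonal for equal levels. All *Cacna2d2* symbols lie under the diagonal, some of them for tag types with no tag listed in the null. The leading *Cacna1c* tag lies above the diagonal at 26.8 against 128 TPM.

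The counts of the pathway lists stand beside the shares of all genes tested. These were 43.4% higher and 8.12% lower in the AVC comparison, 40.6% and 8.88% in the OFT, and 11.9% and 12.7% in the null. With TMM they were 25.6% and 17.5% in the AVC comparison and 26.2% and 17.7% in the OFT. Among 15 other voltage-gated calcium channel subunit genes, 8 had tags in the AVC or the chambers, 3 were higher in the AVC (*Cacna2d1*, *Cacnb3*, *Cacng7*) and 1 was lower (*Cacna2d3*). In the OFT 6 were higher and 1 lower, and in the null 2 of 10 were higher and 1 lower. With TMM the AVC had 2 higher and the OFT 3, each with 1 lower. *Cacna2d1*, the alpha-2-delta gene best known from heart muscle, read 41.0 TPM in AVC, 60.0 in OFT, 2.37 in the ventricles and 18.0 in the null, with no tag in the atria. Unlike *Cacna2d2* it was not called between AVC and OFT. The beta subunit genes *Cacnb2* and *Cacnb3*, which carry pores to the membrane, read 34.2 and 31.4 TPM in the AVC and 40.1 and 33.4 TPM in the OFT.

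Of 20 partners of release and uptake in the sarcoplasmic reticulum, 18 were tested, the AVC had 9 higher, the OFT 9 higher and 1 lower, and 3 of 19 were higher and 2 lower in the null. With TMM the AVC had 7 higher and 4 lower (*Asph*, *Hrc*, *Pln*, *Sln*), and the OFT 7 higher and 2 lower. *Fkbp1a*, which codes for a protein that binds ryanodine receptors, read 615 TPM in AVC, 1026 in OFT, 34.1 in atria, 54.2 in ventricles and 681 in the null. *Pln* codes for phospholamban, which restrains SERCA2, and it read 145 TPM in AVC, 234 in OFT, 16.3 in atria, 623 in ventricles and 130 in the null. It was higher in the ventricles than in the atria (log2 ratio 5.26, edgeR exact p = 1.38e-09), a comparison in which *Atp2a2* was not called (edgeR exact p = 0.525). For the 14 genes of plasma membrane and mitochondrial transport, 7 of 11 tested passed upward for AVC and 5 of 10 for OFT, and 1 of 11 was higher and 2 were lower in the null. With TMM 6 passed upward for AVC and 5 for OFT. *Tpcn1*, a channel gene of acidic organelles, read 15.6 TPM in the AVC and 79.1 in the null, *Mcu*, the mitochondrial uniporter gene, 66.8 and 36.2, and *Letm1* 43.9 and 42.5.

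Of 12 genes of calmodulin and its kinases and phosphatases, 11 were tested against the chambers, where the AVC and the OFT each had 5 higher and 1 lower, and 2 of 12 were higher in the null. Their median log2 ratios, 1.23 in AVC and 1.07 in OFT, equalled those of all genes tested, and with TMM 2 and 3 were higher. *Calm2* and *Calm3* read 383 and 154 TPM in the AVC. Of 17 ion channel and connexin genes of pacemaking and conduction, 10 of 15 tested were higher and 1 was lower in the AVC, against 5 and 2 of 12 in the OFT and 5 and 1 of 17 in the null. With TMM the AVC had 5 higher and 2 lower and the OFT 4 higher and 5 lower. *Gjc1*, the connexin 45 gene of slow conduction, read 94.1 TPM in AVC, 103 in OFT, 17.4 in atria, 16.3 in ventricles and 71.0 in the null. *Gja1*, the connexin 43 gene of working muscle, read 32.3, 22.4, 54.0, 216 and 112 TPM in the same order. *Kcne1*, a potassium channel subunit gene, read 50.4, 22.2, 3.21, 18.2 and 23.3 TPM.

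Of 12 regulators of pacemaker and atrioventricular conduction tissue, the AVC had 7 higher, the OFT 7 higher and 1 lower, and 1 was higher and 1 lower in the null. With TMM the AVC had 7 higher and 1 lower (*Shox2*), and the OFT 5 higher and 3 lower (*Shox2*, *Tbx18*, *Tbx5*). The gene higher in the null was *Nkx2-5* and the gene lower was *Bmp2*, the nearest in distribution to *Cacna2d2*. *Id2*, a target of BMP signals, read 1086 TPM in AVC, 960 in OFT, 63.0 in atria, 102 in ventricles and 801 in the null. The Popeye domain genes *Popdc2* and *Bves*, which are known for roles in heart rhythm, read 361 and 208 TPM in the AVC and 389 and 322 TPM in the null. Between AVC and OFT 4 of the 12 were higher in the AVC (*Bmp2*, *Shox2*, *Tbx3*, *Tbx5*) and 1 was lower (*Isl1*). Over all genes tested, 7.35% were higher and 5.22% lower. *Hcn4* was also higher in the AVC, a call lost after adjustment, and a link to these regulators was not tested.

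The remaining genes had near neighbours of other kinds in their distribution over the libraries. Nearest to *Cacna1c* were *Rps23* (0.0484), *Sphkap* and *Ccdc6*, and nearest to *Cacna1d* were *Hps4* (0.00918), *Gfod1* and *Csnk1e*. *Emc1* (0.0329), *Ylpm1* and *Nfatc1* were nearest to *Cacna1h*, and *Ankrd27* (0.15), *Ehd4* and *Rangrf* to *Hcn4*. *Rpl5* (0.0210), *Sept11* and *Mettl6* were nearest to *Ryr2*, *Parvb* (0.0327), *Tmem209* and *Mdp1* to *Atp2a2*, and *Gpam* (0.0308), *Tceal8* and *Yme1l1* to *Slc8a1*. With 5 libraries many genes share a distribution, and the distance of the nearest gene was larger for *Hcn4* and *Cacna2d2* than for the other 6 genes compared.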

How the data were processed

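The authors deposited, for each library, counts of reads per 17-base tag, with tag types of 5 or fewer tags left out. The submitters' processing notes name the mm9 build. Tags were matched in sense to every NlaIII site of the 33363 GENCODE M21 (GRCm38) transcripts linked to RefSeq. Before matching, 20 adenines were added at the 3′ end of each transcript. Python 3.11.15 was used, with scipy 1.17.1, pandas 2.3.3 and numpy 2.4.6. Of 315529 virtual tags 308949 belong to 1 of 24303 genes, and tags of 1 gene were summed and divided by the HQ total, which was 6075421 for AVC, 5267618 for OFT, 4666514 for atria, 4223810 for ventricles and 12977237 for the null. Between 70.7% and 74.5% of tags matched 1 gene. No genome sequence was used, so matches outside transcripts were not checked.

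Comparisons used edgeR 4.0.16 (exactTest, two-sided, R 4.3.3) over all genes with a tag, with the study's fixed dispersion of 0.12, the HQ totals and no covariate, tested on simulated data. These results rest on the fixed dispersion, since no replicates exist. Intervals are exact at 95% and cover counting error only. Where a gene had no tag in a library, 5 tags were set per missing tag type and library. Only tag types listed in a library compared were set. The ratio is thus a lower bound for those tag types alone, and it leaves out counting error.

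The genes and lists were chosen with earlier results of these data known. Named genes are the 10 members, *Twist1*, the 3 genes of each of 6 pathway lists with the highest level in any library, and the 3 genes nearest in distribution to each member that reached 20 TPM, with the genes that the lists' calls name. A gene that this rule names is not reported here. *Aven*, *Calr* in the chambers, and tags named singly were chosen after their values were seen. Alternatives were TMM and DESeq2 (1.42.0) scaling, totals without haemoglobin or of all tags, dispersions of 0.05 and 0.4, adjusted p, minimum counts, other tag choices, thinning, other control libraries and, chosen after seeing the data, T tags left out of genes and totals. Between 7 marker lists, cardiomyocyte, cushion and neural ones are given in the results. The sums in the AVC, OFT, atria, ventricles and null were 612, 661, 354, 423 and 675 TPM for endothelial markers, 209, 118, 216, 224 and 193 for epicardium, 508, 1117, 302, 426 and 1048 for smooth muscle, and 2426, 3087, 215426, 46733 and 27379 for erythroid markers.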

Additional observations from a re-analysis of the deposited data

Results flagged for a closer look

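For 3 of the 10 genes the AVC and the OFT differed from each other when compared directly, which tests whether their ratios to the shared atria and ventricles differ. The edgeR exact p was 1.35e-06 for *Cacna2d2*, 0.0136 for *Hcn4* and 0.00329 for *Ryr3*. Each was higher in the AVC, and *Cacna2d2* alone passed after adjustment over all genes.

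Antisense tags are left out of the gene sums. Of all HQ tags they made up 6.42% in AVC, 7.06% in OFT, 3.28% in atria, 3.93% in ventricles and 9.58% in the null. They were listed above the chamber level in the AVC for 8 of the genes. *Cacna1d*, *Cacna1h* and *Hcn4* had 1.98, 1.32 and 0.988 TPM of them in the AVC and none in the chambers. For the other 5 genes they summed to 58.3 TPM for *Cacna2d2*, 13.7 for *Cacna1c*, 10.4 for *Ryr2*, 78.2 for *Atp2a2* and 106 for *Slc8a1* in the AVC. In the atria and ventricles, antisense tags of *Cacna2d2* and *Ryr2* were not listed, those of *Cacna1c* summed to 3.64 and 1.42 TPM, those of *Atp2a2* to 9.21 and 6.87 TPM and those of *Slc8a1* to 52.3 and 56.3 TPM. In the null they summed to 21.2 TPM for *Cacna2d2*, 32.5 for *Cacna1c*, 46.9 for *Ryr2*, 71.3 for *Atp2a2* and 238 for *Slc8a1*. Over the 10 genes 57 antisense tag types were seen, and 35 of them start from an NlaIII site at which a sense tag of the same gene was also seen. Their source was not tested.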

How the results depend on the processing

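Of 855 single-gene values under other settings, 752 kept their direction and their side of the threshold, 25 lost a call, 34 gained one and 44 changed sign. No paired analysis was possible because each group has 1 library, so no replicate was left out either. Since a tag type is listed only from 6 tags upward, a gene listed at 0 can still hold up to 5 tags of each tag type.

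The number of the 10 genes called went from 5 to 8 in the AVC against the chambers without the leading tag types, from 5 to 3 in the OFT with dispersion 0.4, from 4 to 0 in the null with dispersion 0.4 and 0 with adjusted p, from 3 to 1 in AVC against OFT with dispersion 0.4, 1 with adjusted p and 1 without leading tags, and from 0 to 1 in ventricles against atria with dispersion 0.05, 1 without leading tags, 1 without T tags and 1 with T tags left out of genes and totals. Over all genes, calls in the AVC, OFT, null, AVC to OFT and ventricle to atria comparisons were 6442, 6162, 3187, 1577 and 2156. With dispersion 0.4 they were 2872, 2837, 812, 687 and 889, with adjusted p 1166, 392 and 671 in the last 3, with dispersion 0.05 5448, 2573 and 3408 there, with 5 tags for missing tag types 4172, 3899, 405 and 585 outside the null, and with 50 tags a gene 4092, 2087, 323 and 454 outside the AVC. The share of calls that were higher went from 84.2% to 59.4% in the AVC, from 82.1% to 59.7% in the OFT and from 48.3% to 61.4% in the null with TMM, from 48.3% to 67.2% in the null and from 58.5% to 43.0% in AVC against OFT with totals of all tags, and from 48.3% to 30.7% in the null without T tags.

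Signs turned as follows, none with a call unless stated, and the causes were not tested. In the AVC against the chambers *Cacna1c* was -0.22 (TMM) and -0.25 (DESeq2 size factors), *Hcn4* 0.087 (totals of all tags), 0.010 (thinned) and 0.37 (atria alone), and *Slc8a1* -0.69 (TMM), -0.73 (DESeq2), -0.77 (site nearest the end) and -0.24 (no T tags in genes and totals). *Atp2a2* was -0.95 (TMM), -0.98 (DESeq2), -0.20 (no haemoglobin), -0.0043 (over 10 tags), -0.36 (site nearest the end), -0.0095 and -0.26 (no T tags, then also in totals), -0.013 (5 tags for missing types) and -0.20 (atria alone). In the OFT *Cacna1c* was -0.49 (TMM), -0.51 (DESeq2) and -0.011 (ventricles alone), *Ryr2* -0.058 (TMM) and -0.077 (DESeq2), *Slc8a1* -0.55 (TMM), -0.57 (DESeq2), -0.50 (site nearest the end) and -0.15 (no T tags in genes and totals), and *Atp2a2* 2.70 without its leading tag, a call. In the null, without leading tags, *Atp2a2* was -1.08, *Hcn4* 5.18 and *Cacna1g* 6.04, and *Cacna1g* was also 6.04 at the site nearest the end, a call both times, where no AVC tag remained and the fitted values of *Cacna1g* and *Hcn4* depend on the prior count. In AVC against OFT *Cacna1c* was -0.074 and -0.097 (no T tags, then also in totals), *Cacna1h* -0.032 (TMM), -0.033 (DESeq2), -0.31 (totals of all tags) and -1.10 (no leading tag), *Ryr2* -0.13 (totals of all tags) and *Slc8a1* 0.17 (no leading tag). In ventricles against atria *Ryr2* was -0.18 (TMM), -0.17 (DESeq2) and -0.14 (no haemoglobin), and *Slc8a1* 0.013 (no leading tag).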
